A study of Homo sapiens with 30 samples.

Results

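The 10 genes described here are negative-feedback regulators of mitogen-activated protein (MAP) kinase signaling, namely the dual-specificity phosphatase genes DUSP1, DUSP2, DUSP4, DUSP5, DUSP6, DUSP7 and DUSP10 and the sprouty genes SPRY1, SPRY2 and SPRY4. They were chosen by name, and every probe that carries one of these symbols in the array files was used. All 10 were found, with 12 of the 41000 probes and 10 of the 30484 gene names on the array. DUSP2 and DUSP10 had 2 probes each, called probe 1 (the brighter) and probe 2, and each of the other genes had 1.

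ERK is the last kinase of the RAS, RAF and MEK cascade, and it is active only while a threonine and a tyrosine of its activation loop are phosphorylated. Dual-specificity phosphatases of this family remove both phosphates. DUSP1, DUSP2, DUSP4 and DUSP5 are inducible nuclear enzymes, DUSP6 and DUSP7 act on ERK in the cytoplasm, and DUSP10 prefers the related kinases JNK and p38. Sprouty proteins sit at the membrane and restrain the step between growth factor receptors and RAF. Many of these genes are themselves transcribed when ERK is active, which closes the feedback loop. BMP7 is a ligand of the TGF-beta superfamily that signals through SMAD proteins and, in some cells, through MAP kinases.

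The values came from 30 two-colour arrays, 1 for each of the human breast cancer cell lines HCC1954, MDA-MB-231, MDA-MB-361, T-47D and ZR-75-30 at 30 min and at 1, 3, 6, 12 and 24 h. On each array, cells given recombinant human BMP7 (labeled with Cy5) were set against cells of the same line given vehicle for the same time (labeled with Cy3). MDA-MB-361, ZR-75-30 and HCC1954 carry an amplified ERBB2 gene, MDA-MB-231 is a line without estrogen receptor, and T-47D is a luminal line with estrogen receptor. According to the methods, MDA-MB-231 and T-47D were grown at serum concentrations that departed from the supplier's advice. Cell line and serum therefore cannot be told apart in comparisons that involve either of them, as every contrast of 1 line with the others does. The other lines were grown by the supplier's advice, and their serum concentrations are not given. Each sample pooled 3 cultures and no line and time point was repeated, so p-values measure the spread between lines or between time points of a line. In such bulk RNA, fewer cells of a type and less RNA per cell cannot be told apart. No array had the dyes exchanged, so any steady difference between the dyes at a probe enters its mean ratio but cancels in comparisons between time points or between lines.

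On each array 53.8% to 68.3% of the probes stood well above background in the red and green channels alike, and this signal over background together with the number of arrays limits the precision. In the vehicle channel, all 30 arrays correlated best with an array of their own line. The MDA-MB-231 array at 6 h stood apart from the other arrays of its line, with a mean correlation of 0.55 against 0.75 to 0.80 (Pearson, 16960 probes, a description). The ZR-75-30 array at 30 min had a mean correlation of 0.54 with its line. A second scan batch held 6 arrays, among them the 30 min arrays of ZR-75-30, HCC1954 and MDA-MB-231. The marker genes fitted the labels: KRT8 and KRT18 were above background on all arrays, ESR1 was below background on every MDA-MB-231 array, and the ERBB2 level was 6.40 to 7.14 (log2) in the lines with the amplified gene, 3.23 in T-47D and 1.68 in MDA-MB-231. VIM, a mesenchymal marker, had mean levels of 6.65 in MDA-MB-231 and 4.21 in HCC1954, against -4.94 to -2.16 in the other lines. Of 5 markers of other cell types, PTPRC (blood cells) and DCN (fibroblasts) were not above background on any array, PECAM1 and CDH5 (endothelium) were highest in HCC1954 at mean levels of -1.35 and -5.01, and COL1A1 was highest in MDA-MB-361 at -0.997. The part of these markers in the results was not tested.

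Averaged over the 5 lines, none of the 10 genes had a BMP7 response that passed the test. Responses are log2 ratios of BMP7 over vehicle, so 1 is a 2-fold rise, and the lines were the replicates of a limma fit across all probes with Benjamini-Hochberg adjustment at 0.05. The test called 4 of 41000 probes (0.00976%) and 0 of the 12 probes of these genes. At an unadjusted p under 0.05 the counts were 6324 probes and 2 probes, and those 2 were DUSP6 (mean -0.11, SE 0.02, n = 5 lines, limma adjusted p = 0.151) and DUSP4 (-0.13, SE 0.03, adjusted p = 0.195). DUSP4 passed when all 30 arrays were fitted with the line as a random block (adjusted p = 0.00452) or with the scan batch as a further term (adjusted p = 0.00373), and with normexp and median scaling its mean was 0.07. The median over the 12 probes was 0.06, against 0.00 over all probes. Apart from DUSP2, the 95% intervals of the mean ran from -0.26 (DUSP7) to 0.31 (DUSP10 probe 2), that is from 0.834-fold to 1.24-fold. The 6 BMP targets used as a check of the treatment had a median of 0.49, and 0 of them passed this test either. A missed call in this test therefore does not show that a response is absent.

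**Figure D1:**
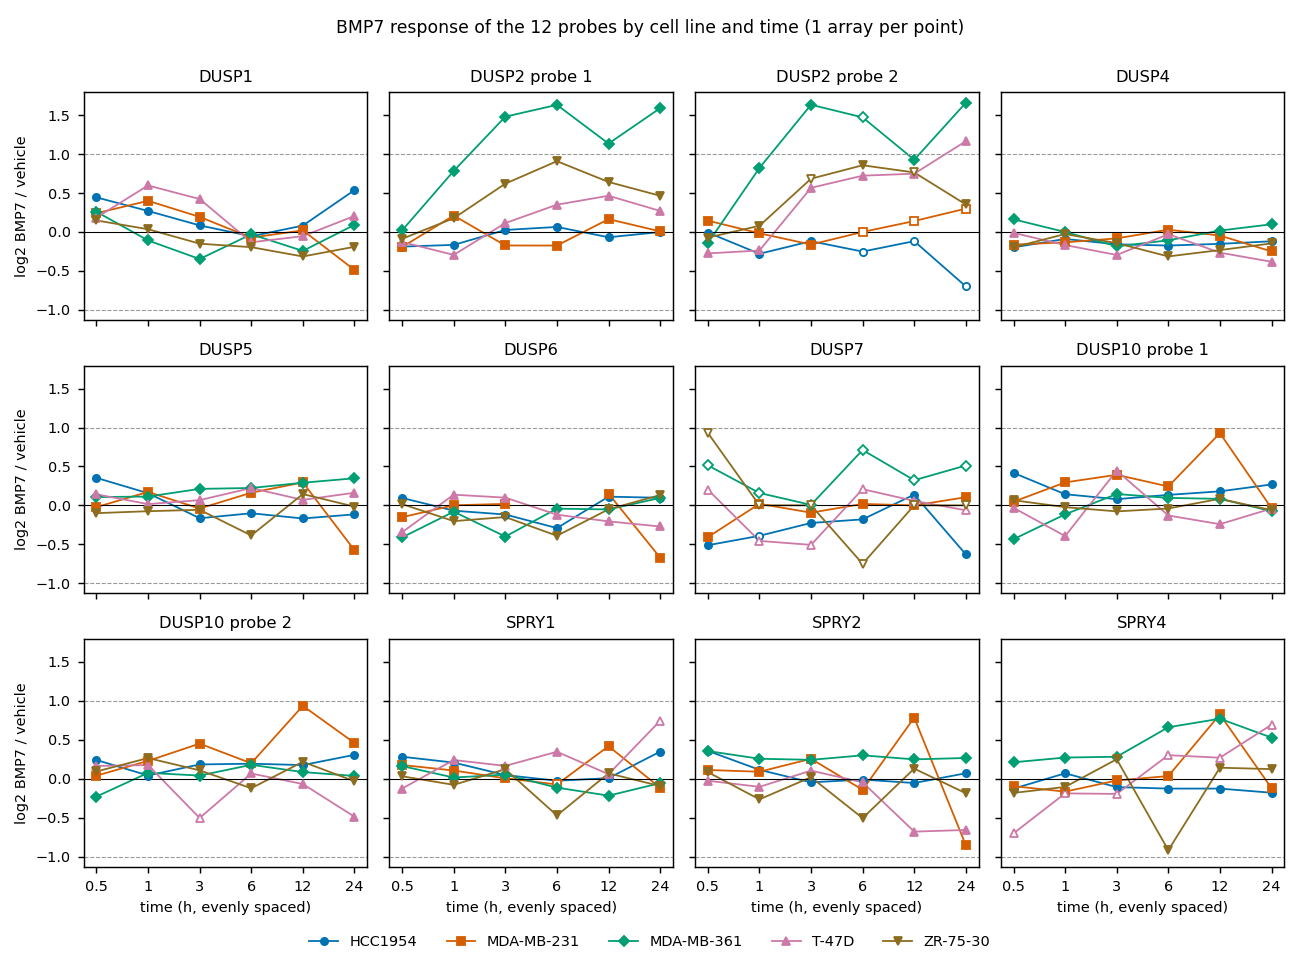
Log2 ratio of BMP7 over vehicle (vertical axis) at each time point (horizontal axis, hours, evenly spaced) for the 12 probes in the 5 cell lines, 1 array per point, with open symbols where a channel was not well above background and dashed lines at 2-fold. The DUSP2 probes in MDA-MB-361 lie above the 2-fold line from 3 h on, apart from probe 2 at 12 h (0.93), and the 1 value past it elsewhere is DUSP2 probe 2 in T-47D at 24 h.

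The gene with the largest response was DUSP2 (also called PAC-1), a nuclear phosphatase of ERK and p38 first known from activated lymphocytes. Its probes lie on the minus strand of chromosome 2, probe 1 at chr2:96172962-96173021 and probe 2 at chr2:96173630-96173689 (hg18, per the file headers). Of the 359 values of these genes, 8 (2.23%) reached 2-fold, against 1.87% of all 1226054 values on the arrays. All 8 were rises of DUSP2, 7 of them in MDA-MB-361 and 1 in T-47D at 24 h, and 7 had both channels above background. At least 1 such value was seen for 2 of the 12 probes, against 31.0% of all probes. At 3-fold the values numbered 4, all of DUSP2. With normexp background correction and loess the 2-fold values numbered 3, and with normexp and median scaling 25, of which 4 were of DUSP2.

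In MDA-MB-361, DUSP2 probe 1 had log2 ratios of 0.02, 0.78, 1.48, 1.63, 1.14 and 1.59 from 30 min to 24 h. Probe 2 had -0.14, 0.82, 1.63, 1.47, 0.93 and 1.66 in the same order. Both probes were near 0 at 30 min, were already raised at 1 h and kept a high level from 3 h to 24 h. In ZR-75-30, probe 1 went from -0.09 at 30 min to 0.18, 0.62, 0.91, 0.64 and 0.46. In T-47D, probe 1 was at -0.13 and -0.30 in the first hour and at 0.11, 0.35, 0.46 and 0.27 later, while probe 2 reached 1.17 at 24 h. These lines had lower values than MDA-MB-361 at every time point from 1 h on. In HCC1954 the 6 values of probe 1 lay between -0.19 and 0.06, and in MDA-MB-231 between -0.19 and 0.21. The ranges of those 2 lines therefore overlapped 0 and showed no run of high values. Over the 30 arrays the 2 DUSP2 probes correlated at 0.89 in the ratio and 0.87 in the vehicle level, values that share the same arrays and are given as a description.

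**Figure D2:**
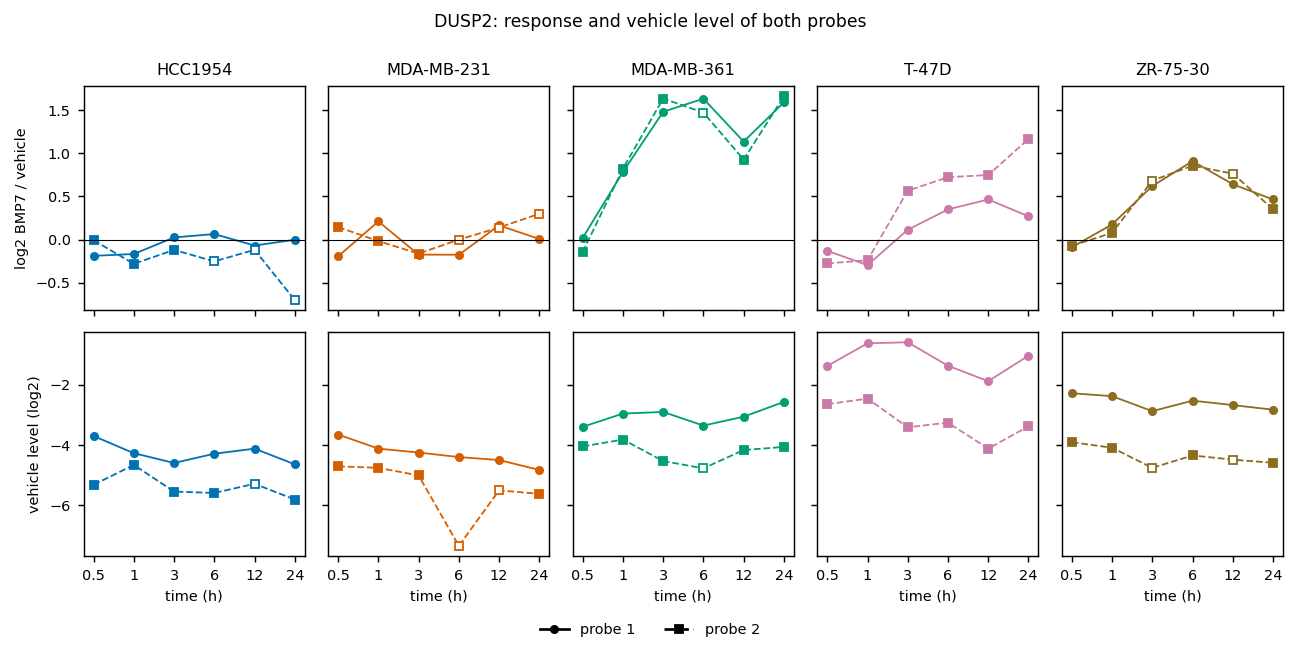
DUSP2 by cell line over time (hours, evenly spaced), with the log2 ratio of BMP7 over vehicle in the upper row and the vehicle level (log2, relative to the 75th percentile of the array) in the lower row, 1 array per point and open symbols where the signal was not well above background. Both probes rise together in MDA-MB-361, to 1.59 and 1.66 at 24 h, and the vehicle level of probe 1 in that line stays between -3.39 and -2.57.

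The time course was tested as the mean of 3 to 24 h minus 30 min, with cell line as a block (25 arrays). The arrays of a line at 3 to 24 h entered as separate values, so time points of a line count as replicates. The SE therefore does not measure how much the rise differs between lines, and a test with lines as the replicates was not run. This test called 234 probes (0.571%, with 0.190% higher), and 1 of the 12 probes passed it. DUSP2 probe 1 rose by 0.59 on the log2 scale (SE 0.13, 1.51-fold, limma adjusted p = 0.0452), upward in 5 of 5 lines with differences of 1.44 in MDA-MB-361, 0.75 in ZR-75-30, 0.43 in T-47D, 0.19 in HCC1954 and 0.15 in MDA-MB-231. Probe 2 differed by 0.60 (SE 0.19, adjusted p = 0.115), upward in 3 of 5 lines. The rise of probe 1 was 0.38 without MDA-MB-361 (adjusted p = 0.0642), and it missed the threshold without HCC1954, T-47D or ZR-75-30 as well (adjusted p = 0.0849 to 0.269). The scan batch also moved with it: 3 of the 5 arrays at 30 min belonged to the second batch. With batch as a term the rise was 0.65 (limma adjusted p = 0.111). Within the first batch the rise was 0.98 (adjusted p = 0.0770), where only MDA-MB-361 and T-47D have an array at 30 min. The 0.98 therefore holds no rise of HCC1954, MDA-MB-231 or ZR-75-30.

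The response of DUSP2 differed between the lines. Each line was compared with the mean of the other 4 over its 6 time points, with time as a factor and the slide as a random block. In MDA-MB-361 this comparison called 3913 of 40999 probes (9.54%). DUSP2 had a mean ratio of 1.11 ± 0.62 (SD, n = 6) there, and probe 1 was higher than in the other lines by 0.98 (SE 0.12, 1.98-fold, limma adjusted p = 0.000214) and probe 2 by 0.88 (SE 0.18, adjusted p = 0.00624). Over the alternatives tried, the difference of probe 1 ranged from 0.70 to 1.09 with adjusted p from 0.000108 to 0.0795, and the threshold was missed with normexp and median scaling. Within the first scan batch, which holds every MDA-MB-361 array, the difference was 1.02. In HCC1954, where 710 probes (1.73%, with 0.993% lower) were called, probe 2 differed by -0.75 (SE 0.18, adjusted p = 0.0414), but by -0.36 (adjusted p = 0.356) when only spots above background in both channels were used, and probe 1 differed by -0.47 (adjusted p = 0.0527). The other lines gave 22 called probes (0.0537%) in MDA-MB-231, 4052 (9.88%) in T-47D and 336 (0.820%) in ZR-75-30, and none of the 12 probes was among them.

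The BMP target genes show the treatment itself. ID1, an inhibitor of basic helix-loop-helix factors, had mean ratios of 0.45 in T-47D, 0.51 in ZR-75-30, 0.79 in HCC1954, 0.92 in MDA-MB-361 and 1.39 in MDA-MB-231. From 30 min to 3 to 24 h, 4 of 6 BMP targets passed the test, all upward: ID2 by 1.14, ID1 by 1.05, ID3 by 0.92 and SMAD6, an inhibitory SMAD, by 0.57 (limma adjusted p from 0.0130 to 0.0490). HCC1954 and MDA-MB-231 thus had ID1 ratios of 0.79 and 1.39 next to DUSP2 ratios of -0.06 and -0.03 (probe 1). SMAD6 had its highest mean ratio, 0.97, in MDA-MB-361, where it was higher than in the other lines by 0.79 (adjusted p = 0.000214), and its mean was between 0.12 and 0.26 in the others. By the pattern over all 30 arrays, the genes most like DUSP2 in the ratio were UCK1 (r = 0.80), SMAD9 (r = 0.79) and SMAD6 (r = 0.78) among 13583 probes, a description over arrays that share their lines and times.

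The promoters of DUSP2, of DUSP1 and of DUSP6 are shown because DUSP2 had the largest response to BMP7, DUSP1 was the immediate early gene with a ratio above 0 in every line at 30 min, and DUSP6 differed widely between lines in its vehicle level while its ratio passed no test. RefSeq promoter windows were at hand for 8 of the 10 genes. Each sequence below holds the 250 bases before a RefSeq transcript start on GRCh38.p14, read 5′ to 3′ on the minus strand, DUSP2 at chr2:96145441-96145690, DUSP1 at chr5:172771196-172771445 and DUSP6 at chr12:89352502-89352751. Capitals mark matches to GGCGCC (a GC-rich motif bound by SMAD proteins), TGACGTCA (the cAMP response element) or CCGGAA (the ETS core), searched on both strands.
DUSP2: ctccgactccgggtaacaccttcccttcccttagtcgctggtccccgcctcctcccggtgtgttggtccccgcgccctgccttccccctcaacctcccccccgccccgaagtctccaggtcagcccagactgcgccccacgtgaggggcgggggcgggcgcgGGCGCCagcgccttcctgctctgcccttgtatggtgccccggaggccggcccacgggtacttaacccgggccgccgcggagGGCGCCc
DUSP1: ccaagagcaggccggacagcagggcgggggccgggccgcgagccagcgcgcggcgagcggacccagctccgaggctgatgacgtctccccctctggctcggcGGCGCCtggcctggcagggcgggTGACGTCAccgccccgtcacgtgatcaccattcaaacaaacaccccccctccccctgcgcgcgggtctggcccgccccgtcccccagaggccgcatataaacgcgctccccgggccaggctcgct
DUSP6: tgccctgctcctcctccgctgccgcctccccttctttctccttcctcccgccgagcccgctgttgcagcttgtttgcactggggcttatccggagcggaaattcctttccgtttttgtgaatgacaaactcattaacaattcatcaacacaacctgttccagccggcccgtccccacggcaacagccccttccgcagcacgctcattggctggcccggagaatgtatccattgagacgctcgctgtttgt
DUSP2 held GGCGCC at 2 places, which start 88 and 7 bases before the transcript start. DUSP1 held 1 GGCGCC and 1 TGACGTCA, and DUSP6 held no match to any of the motifs. Of 35116 promoter windows of this length, 16.4% held GGCGCC, 14.5% CCGGAA and 1.65% TGACGTCA. DUSP7 and SPRY4 had 1 GGCGCC each. DUSP10, SPRY1 and SPRY2 had windows at more than 1 transcript start, and their matches are counted over all of these. DUSP10 had 1 GGCGCC and SPRY1 had 1 CCGGAA. SPRY2 had 1 CCGGAA and 1 GGCGCC, in different windows, and no TGACGTCA. The share of G and C was 74.0% in the DUSP2 window and 57.2% in that of DUSP6, against a median of 58.0%.

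Among the other nuclear phosphatases, DUSP1 (MKP-1), an immediate early gene that inactivates p38, JNK and ERK, had ratios above 0 in all 5 lines at 30 min, from 0.15 to 0.44. Its ratio was lower at 3 to 24 h than at 30 min in 5 of 5 lines, by -0.29 on average (SE 0.10, adjusted p = 0.151), which did not pass the test. DUSP4 (MKP-2) stayed between -0.38 and 0.16 on all 30 arrays, the narrowest range of the 12 probes. DUSP5, which is selective for ERK, ranged from -0.58 to 0.35. In MDA-MB-361 its 6 values lay above 0, between 0.11 and 0.35, and the difference from the other lines was 0.21 (SE 0.09, adjusted p = 0.144).

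DUSP6 (MKP-3), the cytoplasmic phosphatase most closely tied to ERK activity, passed no test in the comparisons of ratios. Its probe lies at chr12:88266275-88266334 (hg18, minus strand). Its values ran from -0.67, in MDA-MB-231 at 24 h, to 0.15, and its line means were all below 0, from -0.15 in MDA-MB-361 to -0.03 in HCC1954. The MDA-MB-231 value at 6 h was left out because its spot was marked as an outlier, so DUSP6 has 29 values. DUSP7, its cytoplasmic relative, was above background in both channels on 11 arrays, all of HCC1954 and MDA-MB-231, and had ratios of exactly 0.00 on 4 ZR-75-30 arrays, where the software sets signals below background to a common value. Its difference in MDA-MB-361, 0.48 (SE 0.15, adjusted p = 0.0532), came from spots that were below background in the vehicle channel of that line. DUSP10 (MKP-5) reached 0.93 and 0.94 at 12 h in MDA-MB-231 on its 2 probes, whose ratios over 30 arrays correlated at 0.49, and its differences in that line, 0.29 and 0.34, had adjusted p of 0.575 and 0.447.

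Of the sprouty genes, SPRY4 had higher ratios in MDA-MB-361 (probe at chr5:141670755-141670814, hg18, minus strand). Its ratios there were 0.21, 0.27, 0.28, 0.66, 0.77 and 0.53 from 30 min to 24 h. In HCC1954 they lay between -0.18 and 0.07, in MDA-MB-231 between -0.17 and 0.83 and in ZR-75-30 between -0.92 and 0.25. Every MDA-MB-361 value was thus above 0, but the ranges of the lines overlapped. The difference from the other 4 lines was 0.48 (SE 0.15, 1.40-fold, limma adjusted p = 0.0418). It missed the threshold with normexp and median scaling (0.46, adjusted p = 0.663), with no time term (0.49, adjusted p = 0.0984), without the MDA-MB-231 array at 6 h (0.48, adjusted p = 0.0591), without HCC1954 (0.46, adjusted p = 0.112), without MDA-MB-231 (0.52, adjusted p = 0.0823) and with scan batch as a term (0.44, adjusted p = 0.0706). In T-47D the SPRY4 ratios, from -0.70 to 0.69, were measured on a vehicle signal below background on all 6 arrays. Without T-47D the difference was 0.50 (limma adjusted p = 0.0128), and it also passed with normexp and loess (0.33, adjusted p = 0.0337).

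SPRY2, which restrains receptor signaling at the level of RAS and RAF, had 6 ratios in MDA-MB-361 between 0.24 and 0.36, the narrowest set of its 5 lines. The difference from the other lines was 0.34 (SE 0.13, adjusted p = 0.105). In MDA-MB-231 its ratio was 0.78 at 12 h and -0.85 at 24 h. SPRY1 ranged from -0.47 to 0.74 and passed no test of the ratio. In MDA-MB-361 as a whole, 3 of the 12 probes were called, all higher (5.15% of all probes were called higher), and they belong to 2 genes, DUSP2 and SPRY4, so the count rests on few members. With only spots above background in both channels, 2445 of 23715 probes were called higher in that line, a larger share than over all probes. The median difference of the 12 probes in that line was 0.18, against 0.00 over all probes.

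**Figure D3:**
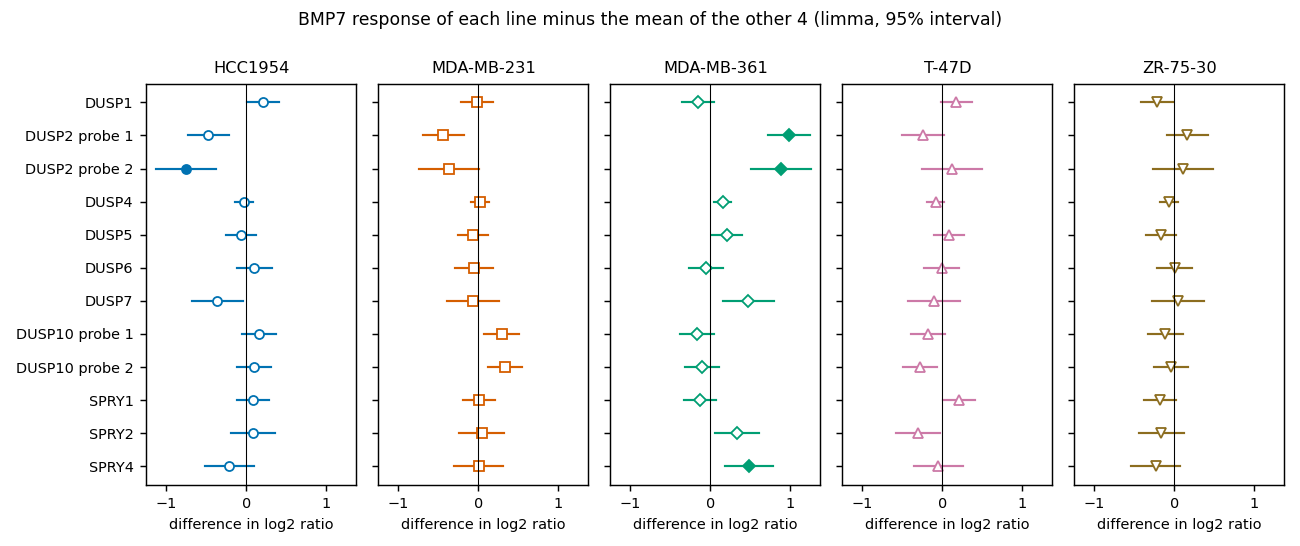
Difference in the log2 ratio of BMP7 over vehicle between each line and the mean of the other 4 (horizontal axis) for the 12 probes, with limma's 95% interval as bars and filled symbols for an adjusted p under 0.05. DUSP2 in MDA-MB-361 lies furthest from 0, at 0.98 and 0.88, and the filled symbols are both DUSP2 probes and SPRY4 in MDA-MB-361 and DUSP2 probe 2 in HCC1954.

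The rest of the pathway was read from lists of other regulators, kinases and output genes. Over the 5 lines and over time, none of the 6 other MAP kinase phosphatases, 11 other negative regulators, 15 kinases and adaptors of the core ERK cascade, 11 JNK and p38 pathway kinases and 10 other transcripts read as ERK output passed the test. In the comparison of MDA-MB-361 with the other lines, 12 of these 53 genes (22.6%) passed, against 9.54% of all probes. The share of probes was 17.1% with only spots above background in at least 1 channel, and 18.7% with both channels above it. Most of the 53 genes were above background on all arrays, so their share lies near these. The output transcripts had 3 of 10 higher, namely EPHA4 (0.39), IER3 (0.34) and ETV5, whose vehicle signal was above background on 2 of 6 MDA-MB-361 arrays and on none of T-47D, so its difference is not a measured size. Of the core cascade, 4 of 15 were higher, RPS6KA1 (0.36), MAP2K2 (0.34), SHC1 (0.32) and HRAS (0.28). MAPK12, a p38 kinase, was called higher on spots below background on every vehicle array of MDA-MB-361. MAP2K4 (-0.37) and MAPK14 (-0.29), which belong to the JNK and p38 branches, were lower, as were the phosphatase DUSP16 (-0.39) and the receptor-level inhibitor IL17RD (-0.37). In T-47D, 6 of the 53 passed, a share near the 9.88% of all probes. DUSP9 (0.27) and GRB2 (0.14) were higher there, and DUSP8 (-0.35), HRAS (-0.19), MAP2K7, KSR1 and the BMP target ID3 (-0.64) lower, with MAP2K7 and KSR1 each below background on 1 or more arrays of 3 lines. None of these lists had a called member in HCC1954, MDA-MB-231 or ZR-75-30.

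In vehicle-treated cells most of the same genes had levels that differed between the lines. Levels are log2 signals relative to the 75th percentile of the array, compared within a probe only, and the lines were contrasted as above. Of the 60 contrasts of a probe and a line, 44 passed the test. The comparison called 37.8% of all probes in ZR-75-30, 40.0% in HCC1954, 40.8% in MDA-MB-361, 46.1% in MDA-MB-231 and 50.2% in T-47D. Many of all probes were not above background. Of the 53 genes of the pathway lists, most of them above background, 54.7% (ZR-75-30) to 81.1% (MDA-MB-231) were called. A difference between lines is thus common among such genes and not particular to the members. Between pairs of lines, used for the order of the levels, the shares were 55% (MDA-MB-231 and T-47D), 54.4% (HCC1954 and T-47D), 44.7% (MDA-MB-231 and MDA-MB-361), 43.9% (MDA-MB-231 and ZR-75-30), 41.6% (HCC1954 and MDA-MB-361), 40.0% (T-47D and ZR-75-30), 37.1% (MDA-MB-361 and T-47D), 36.2% (HCC1954 and ZR-75-30), 36.0% (HCC1954 and MDA-MB-231) and 34.5% (MDA-MB-361 and ZR-75-30). The median difference of all probes was 0.42 in T-47D, 0.06 in MDA-MB-361, 0.02 in ZR-75-30, -0.25 in MDA-MB-231 and -0.35 in HCC1954, so the members are read relative to these shifts. With quantile normalization these medians were between -0.07 and 0.01 and 46 contrasts passed, none of the 44 with the opposite sign. With normexp background correction 16 passed and 28 of the 44 calls were lost.

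HCC1954 and MDA-MB-231 had high levels of most of these genes and T-47D low ones. VIM was high and ESR1 and GATA3 were low in the same 2 lines, and the part of these markers in the pattern was not tested. In HCC1954, 7 of 12 probes were higher than in the other lines (15.5% of all probes were) and 3 lower (24.5%). In MDA-MB-231, 8 were higher (19.5%) and 3 lower (26.7%). In T-47D, 2 were higher (33.0%), both of DUSP2, and 8 lower (17.2%). In ZR-75-30, 3 were higher (21.4%) and 6 lower (16.5%), and in MDA-MB-361 1 was higher (22.4%) and 3 lower (18.4%). The median difference of the 12 probes was -1.43 in T-47D, -0.32 in ZR-75-30, -0.03 in MDA-MB-361, 1.03 in MDA-MB-231 and 1.15 in HCC1954.

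**Figure D4:**
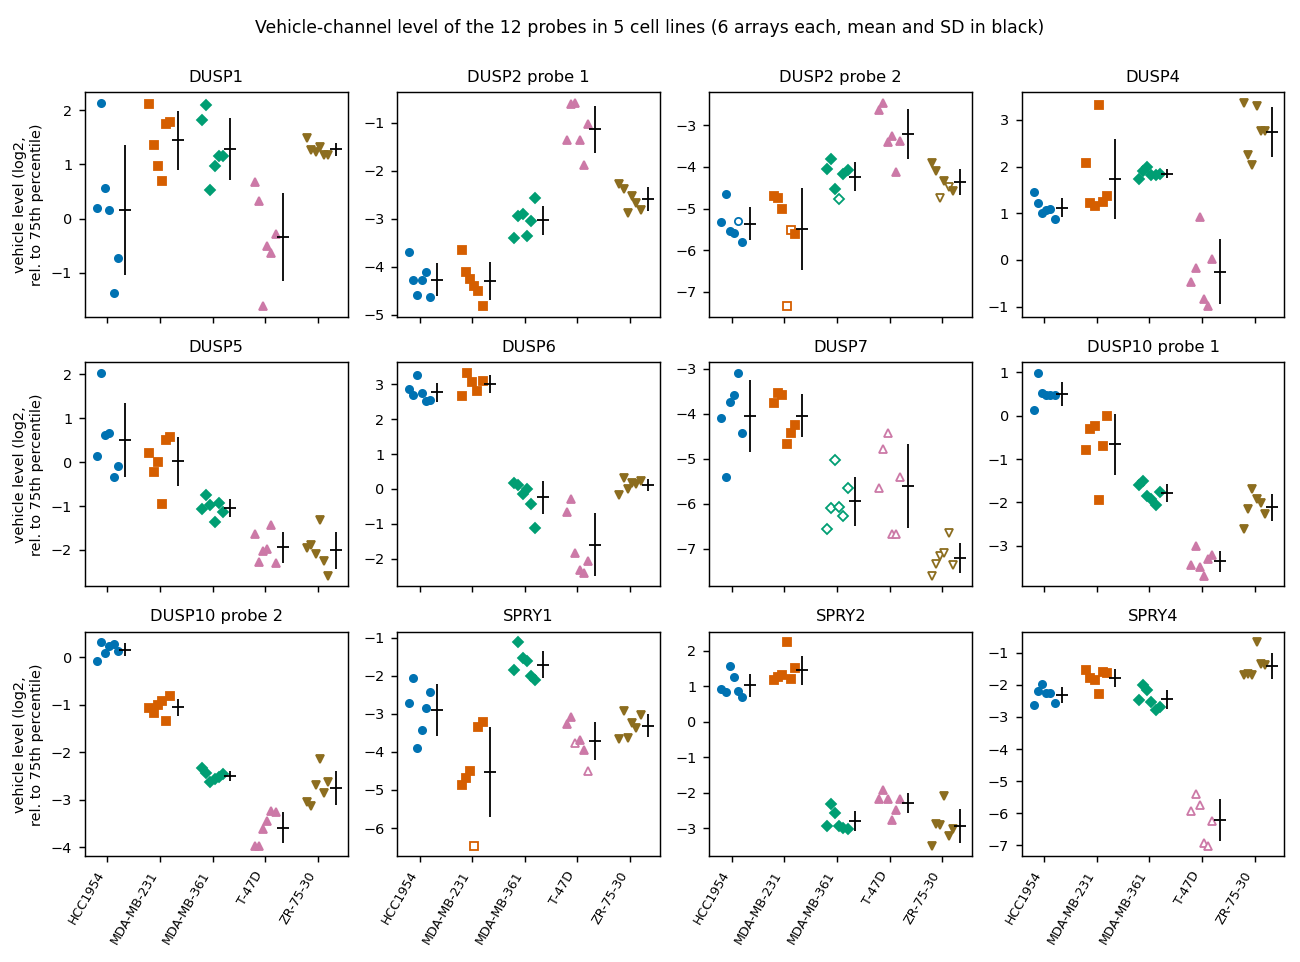
Vehicle level (log2 signal relative to the 75th percentile of the array, vertical axis) of the 12 probes in the 5 cell lines (horizontal axis), 1 point per array and time point, with the mean and SD over the time points in black and open symbols where the vehicle signal was not well above background. DUSP6 and SPRY2 are high in HCC1954 and MDA-MB-231, DUSP2 is highest in T-47D, and all 6 SPRY4 points of T-47D are open.

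DUSP6 had the widest span between line means of the probes measured in every line, 4.60. Its vehicle level had a lowest value, median and highest value of 2.51, 2.72 and 3.25 in HCC1954. In MDA-MB-231 (5 arrays) these were 2.67, 3.07 and 3.34. HCC1954 and MDA-MB-231 thus overlapped. In MDA-MB-361 they were -1.12, -0.08 and 0.16. In ZR-75-30 the values were -0.17, 0.16 and 0.32, and in T-47D -2.41, -1.95 and -0.28, so both high lines lay above every array of the other 3. The differences from the other 4 lines were 2.45 in HCC1954 (SE 0.23, limma adjusted p = 7.96e-09), 2.70 in MDA-MB-231 (SE 0.24, adjusted p = 1.11e-09) and -2.98 in T-47D (SE 0.23, adjusted p = 3.39e-10). In the order of the lines, MDA-MB-231 and HCC1954 did not differ beyond their spread, nor did ZR-75-30 and MDA-MB-361, while HCC1954 lay above ZR-75-30 and MDA-MB-361 above T-47D.

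SPRY2 had a similar order at the top. Its lowest, median and highest levels were 1.17, 1.29 and 2.24 in MDA-MB-231 and 0.70, 0.90 and 1.57 in HCC1954. In MDA-MB-361 they were -3.03, -2.94 and -2.31, in T-47D -2.76, -2.18 and -1.93, and in ZR-75-30 -3.50, -2.97 and -2.09. The 2 high lines were thus separated from the 3 others by more than the whole spread of either set. The differences from the other lines were 2.69 in HCC1954 (SE 0.20, limma adjusted p = 5.29e-11) and 3.19 in MDA-MB-231 (SE 0.18, adjusted p = 2.73e-13). T-47D, MDA-MB-361 and ZR-75-30 followed in that order without differing between neighbours (adjusted p = 0.114 and 0.739). The highest MDA-MB-231 value came from the 6 h array, and without it the mean was 1.29 ± 0.13 (SD, n = 5) in place of 1.45 ± 0.40.

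DUSP10, which acts on JNK and p38, followed the same lines on both probes. Its level fell from HCC1954 (0.51 ± 0.28, SD, n = 6, probe 1) over MDA-MB-231 (-0.66 ± 0.69, or -0.41 ± 0.33 without its 6 h array) to MDA-MB-361 (-1.79 ± 0.21) and ZR-75-30 (-2.11 ± 0.31), with T-47D lowest (-3.36 ± 0.24), and of these steps only that between MDA-MB-361 and ZR-75-30 missed the test on both probes. DUSP5 was higher in HCC1954 by 1.68 and in MDA-MB-231 by 1.07 (1.30 without its 6 h array), and lower in T-47D by -1.31 and in ZR-75-30 by -1.29. DUSP7 was above background on all vehicle arrays of HCC1954 and MDA-MB-231 and on none of the other lines. Against the lowest signal counted as above background, its level in HCC1954 and MDA-MB-231 was at least 2.73-fold (over T-47D) to at least 3.35-fold (over MDA-MB-361) higher. These bounds use another scale: the average of both channels was quantile normalized and turned back to the vehicle channel with the ratio. In the measured vehicle levels the same pairs of lines had limma adjusted p of 0.00764 or less. Over 29 arrays, the vehicle levels of DUSP6 correlated at 0.93 with DUSP10 and 0.88 with SPRY2, against 0.41 and 0.52 in the ratio, values that share the lines and are a description.

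DUSP2 ran the other way. Its lowest, median and highest vehicle levels (probe 1) were -1.87, -1.19 and -0.58 in T-47D, -2.87, -2.60 and -2.28 in ZR-75-30, and -3.39, -3.004 and -2.57 in MDA-MB-361. In HCC1954 they were -4.64, -4.28 and -3.70, and in MDA-MB-231 -4.83, -4.32 and -3.65. On probe 1 T-47D did not overlap any other line, and its difference was 2.44 (SE 0.20, adjusted p = 5.92e-10). On probe 2 its range, -4.12 to -2.45, overlapped those of MDA-MB-361, -4.78 to -3.82, and ZR-75-30, -4.76 to -3.91, and its difference was 1.65 (SE 0.26, adjusted p = 1.37e-05). The line with the largest rise after BMP7, MDA-MB-361, had a vehicle level of DUSP2 near the mean of the others (difference 0.08, SE 0.22, adjusted p = 0.864). HCC1954 and MDA-MB-231, which showed no run of high DUSP2 ratios, had the lowest vehicle levels, with differences of -1.48 and -1.57. The vehicle levels of DUSP2 and DUSP6 correlated at -0.88 over 29 arrays, and their ratios at -0.08.

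DUSP4 had a lower level in T-47D (-2.01, limma adjusted p = 3.13e-06) and a higher one in ZR-75-30 (1.51, adjusted p = 6.22e-05). In the order of the lines only the step from HCC1954 to T-47D passed the test. Arrays of the second scan batch had the highest DUSP4 levels of their line, in ZR-75-30 3.37 and 3.29 against 2.02 to 2.77 on the others. MDA-MB-361 had no such array, so the sizes of these differences are not free of the batch. DUSP1 was lower in T-47D (-1.42) and HCC1954 (-0.84) and higher in MDA-MB-231 (0.86, or 1.001 without its 6 h array). SPRY1 was higher in MDA-MB-361 (1.81, adjusted p = 0.000230), where its 6 levels lay between -2.12 and -1.13, and lower in MDA-MB-231 (-1.69, or -1.30 without its 6 h array), where 1 of 6 arrays was not above background. SPRY4 was not above background on any vehicle array of T-47D. Its level was at least 6.67-fold higher in MDA-MB-361, 8.82-fold in HCC1954, 13.1-fold in MDA-MB-231 and 14.9-fold in ZR-75-30, on the scale of the DUSP7 bounds. In the measured vehicle levels each of these lines differed from T-47D (limma adjusted p of 2.24e-10 or less). Among those 4 lines no neighbours in the order differed beyond their spread (adjusted p = 0.161 to 0.713). The difference of HCC1954 from the other 4, 0.63 (adjusted p = 0.0232), was -0.43 without T-47D (adjusted p = 0.109).

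Other transcripts read as ERK output were also high in HCC1954 and MDA-MB-231 and low in T-47D. Of the 10 on the list, 9 were higher and 0 lower in HCC1954, among them the receptor EPHA2, the AP-1 subunit FOSL1 and the ETS factors ETV4 and ETV5. In MDA-MB-231, 7 were higher and 1 lower. In MDA-MB-361, 1 was higher and 7 lower, with PHLDA1 at -6.01. In T-47D, 1 was higher and 9 lower, with EGR1 at -4.40. In ZR-75-30, 4 were higher and 2 lower. Several of these genes were below background in the low lines. FOSL1 was above it on 1 of 6 arrays each in MDA-MB-361 and T-47D, EPHA2 on 3 of 6 in T-47D, and ETV4 and ETV5 on none in T-47D. Against the lowest signal counted as above background in T-47D, ETV4 was at least 23.3-fold higher in HCC1954 and 17.3-fold in MDA-MB-231, and ETV5 at least 15-fold and 13.6-fold. These bounds are on the scale of the DUSP7 bounds, and the pairs were not tested for these genes. The medians of the list, which hold these dim values, were 2.50, 2.37, -2.39, -2.68 and 0.40 in this order of lines, and here too cell line and serum cannot be told apart.

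The counts of the other lists are read against the shares of all probes called higher and lower in each line, as given above (33.0% and 17.2% in T-47D, 19.5% and 26.7% in MDA-MB-231). Of 6 other MAP kinase phosphatases, 4 were higher and 0 lower in T-47D, 3 and 1 in ZR-75-30, 2 and 3 in MDA-MB-361, 1 and 4 in MDA-MB-231 and 1 and 3 in HCC1954. DUSP16, which acts on JNK, was lower in HCC1954 (-2.34) and higher in MDA-MB-361 (2.41). Of 11 other negative regulators, 5 were higher and 4 lower in T-47D, 2 and 3 in ZR-75-30, 3 and 4 in MDA-MB-361, 5 and 5 in MDA-MB-231 and 2 and 3 in HCC1954. ERRFI1, an inhibitor of ERBB family receptors, was higher in HCC1954 (2.32) and MDA-MB-231 (2.21). The core cascade had 3 higher and 5 lower of 15 in T-47D, 6 and 1 in ZR-75-30, 3 and 4 in MDA-MB-361, 2 and 7 in MDA-MB-231 and 4 and 4 in HCC1954. Of 11 JNK and p38 kinases, the counts were 4 and 5, 3 and 4, 5 and 2, 5 and 6, and 2 and 5 in the same order. Of the 6 BMP targets, 5 were higher and 0 lower in MDA-MB-361 and in ZR-75-30, with 3 and 0 in T-47D, 1 and 5 in MDA-MB-231 and 2 and 2 in HCC1954.

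The vehicle levels over time were compared as 12 and 24 h minus 30 min and 1 h, with the line as a block (20 arrays). The test called 5 of 41000 probes (0.0122%) and 0 of the 12. At an unadjusted p under 0.05 it gave 3817 probes and 3 of the 12. EGR1, an immediate early gene of the output list, fell by 2.14 (SE 0.29, limma adjusted p = 0.0132). DUSP1 differed by -0.83 (SE 0.27, adjusted p = 0.354), lower in 4 of 5 lines. In HCC1954 its vehicle level was 0.20, 2.14, 0.57, 0.17, -1.37 and -0.72 from 30 min to 24 h, and in ZR-75-30 1.49, 1.27, 1.23, 1.33, 1.18 and 1.18. The first line thus peaked at 1 h and the second stayed level. DUSP5 in HCC1954 peaked at the same array, with 0.13, 2.04, 0.62, 0.66, -0.34 and -0.08. DUSP2 probe 2 differed by -0.66 (adjusted p = 0.158, lower in 5 of 5 lines) and DUSP6 by -0.57 (adjusted p = 0.410, lower in 4 of 5), and DUSP6 in T-47D went from -0.66 and -0.28 in the first hour to -1.84, -2.33, -2.41 and -2.06.

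**Figure D5:**
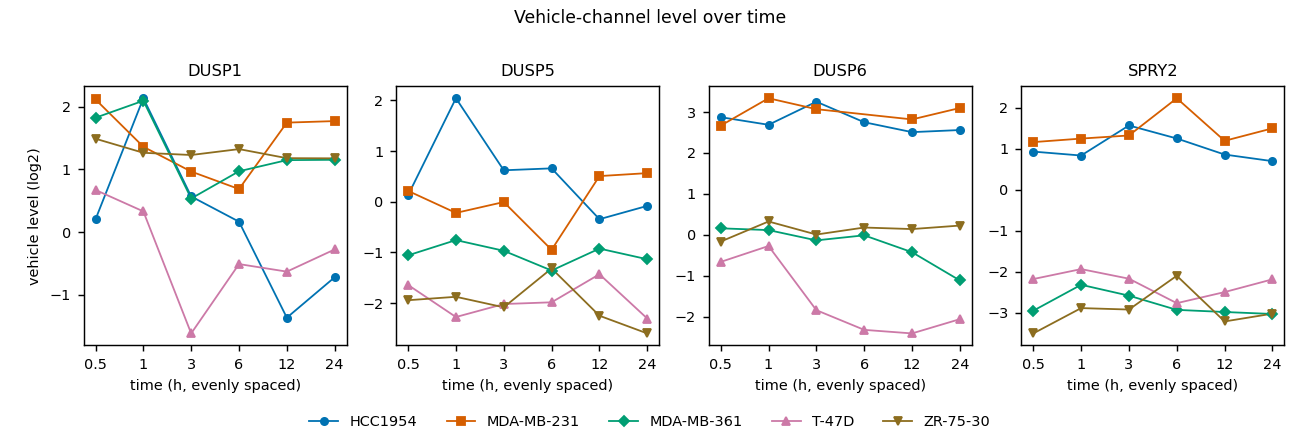
Vehicle level (log2 signal relative to the 75th percentile of the array) of DUSP1, DUSP5, DUSP6 and SPRY2 over time (hours, evenly spaced), with 1 line per cell line and 1 array per point. DUSP1 and DUSP5 in HCC1954 peak at 1 h, at 2.14 and 2.04, while the distance between cell lines in DUSP6 and SPRY2 is larger than the change over time in most of them.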

How the data were processed

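Total RNA of 30 pools was hybridized by the authors to two-colour Agilent arrays, and, per the file headers, Feature Extraction 9.5.1.1 gave background-subtracted, dye-normalized signals. The deposited log10 ratio of red (BMP7) over green (vehicle) was converted to log2, shifted to a median of 0 per array, and averaged over spots of a probe without control spots or spots marked as outliers. The deposited green intensity was taken to log2 minus the 75th percentile of the array (vehicle level). The authors' deposited matrix of log2 values, whose centering is not given in the sources used here, correlated with these ratios at 0.825 to 0.998 per array and served as an alternative. The direction of the ratios is that of the labels' dyes.

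Tests used limma 3.58.1 in R 4.3.3 (package data.table, version 1.17.8) across all probes, with Benjamini-Hochberg adjustment at 0.05. The mean response used 5 line means, and time contrasts had line as a block. Line contrasts had time as a term and the slide as a random block (13 slides, 1 of them with 2 lines). In the time and line contrasts the time points of a line counted as separate values. Each was first run on simulated data with independent noise on every array. Such data cannot show how the fits deal with arrays that share a slide or a line. Alternatives were normexp (offset 50) with loess or median scaling, the deposited matrix, no median shift, filters on dim spots, outlier-marked spots kept, quantile normalization, both channels averaged, scan batch, slide, block and time terms, other time groups and leaving out lines or arrays. The alternative without the MDA-MB-231 array at 6 h was chosen after seeing the data.

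All members and every probe of them are named. Of the other lists (MAP kinase phosphatases, negative regulators, core ERK cascade, JNK and p38 kinases, ERK output and BMP targets), at most 4 genes that passed a test are named per comparison, those with the largest change. Members and lists were chosen with earlier results of these data known. For DUSP2, DUSP6 and SPRY4, the 3 genes with the highest Pearson correlation were named. Probe genes are those in the array files, and SPRED3 and SOS2 were not measured. Promoter sequences came from RefSeq on GRCh38.p14. Probe positions are on hg18, and whether they are exonic is not given in the sources used here. Figures used Python 3.11.15, matplotlib 3.10.9, pandas 2.3.3 and numpy 2.4.6.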

Additional observations from a re-analysis of the deposited data

Results flagged for a closer look

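In 6 of 100 sets of 6 arrays (5 for DUSP6 in MDA-MB-231), 1 array lay far from the others of its line, and chance alone gives about 1 in 20. The SPRY1 ratio in ZR-75-30 was -0.47 at 6 h, against -0.09 to 0.12 at the other time points. The SPRY4 ratio was 0.07 in HCC1954 at 1 h (the others -0.18 to -0.11), 0.83 in MDA-MB-231 at 12 h (the others -0.17 to 0.03) and -0.92 in ZR-75-30 at 6 h (the others -0.18 to 0.25). The SPRY2 vehicle level was 2.24 in MDA-MB-231 at 6 h (the others 1.17 to 1.5), on the array that stood apart from its line. The SPRY4 vehicle level was -0.68 in ZR-75-30 at 6 h (the others -1.71 to -1.34), so this array was apart in both measures of SPRY4 and in the SPRY1 ratio. Both measures of SPRY4 use the same vehicle signal, and a high vehicle signal lowers the ratio, so they are not separate observations.

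The response to BMP7 differed between lines by limma's test of the difference itself for DUSP2 probe 1 (0.98) and probe 2 (0.88) and SPRY4 (0.48) in MDA-MB-361, and for DUSP2 probe 2 in HCC1954 (-0.75).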

How the results depend on the processing

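No pairing by replicate was possible because each line and time point has 1 array and the labels number no replicates. The pairing of BMP7 with vehicle on an array and, over time, the line as a block are part of the tests. Precision is limited by how many arrays there are and by their signal over background, most of all for DUSP7, for DUSP2 probe 2 and for SPRY4 in T-47D. The 44 called vehicle contrasts between lines were followed over the alternatives tried, each counted once per alternative. Of these counts, 604 kept their direction and their side of the threshold, 48 lost the call and 1 reversed. The reversed case was SPRY4 in HCC1954, at -0.43 without T-47D (-0.43 to 1.14 over the lines left out). Of the 44 calls, 28 were lost with normexp (16 passed), and leaving out 1 line gave 29 to 40 (29 without HCC1954). The call of DUSP2 probe 1 in ZR-75-30 was lost without the array of that line at 6 h (0.51, adjusted p = 0.0638) or without that of MDA-MB-231 (0.50, adjusted p = 0.0532). The arrays at 6 h are not part of the vehicle comparison over time, so leaving them out could not change it.

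In the mean response, 1 probe (DUSP4) passed with line as a random block and 1 with scan batch as a term, where 2814 and 3171 of all probes passed, and 0 without each line. In the comparison of 3 to 24 h with 30 min, 2 of the 12 probes passed when 1 h was counted with 30 min (1002 probes in all), and 0 with normexp and loess (62 in all), normexp and median scaling (1), the deposited matrix (39), scan batch as a term (11), the first scan batch alone (8) or no line block (0, with 5087 at an unadjusted p under 0.05). Without 1 line, 0 to 1 passed. Leaving out the ZR-75-30 array at 6 h gave 797 probes in all, with DUSP2 probe 1 still called (0.57, limma adjusted p = 0.0332). In the mean response the same step gave 46 probes in all and 0 of the 12.

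In the comparison of lines, 7 passed in the first scan batch alone, 2 without a time term and 0 with normexp and median scaling, and 1 to 7 without 1 line. In MDA-MB-361, 2111 probes were higher and 1802 lower, against 3652 and 1494 in the deposited matrix and 1 and 0 with normexp and median scaling. In HCC1954 and T-47D the deposited matrix gave 61 higher and 263 lower, and 848 and 2305, against 303 and 407, and 1753 and 2299. For the vehicle levels, quantile normalization gave 7797 probes higher and 7842 lower in HCC1954, against 6367 and 10048, and 8737 and 9220 in T-47D, against 13526 and 7056.

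In the vehicle levels over time, 1 of the 12 passed when only spots above background were used (480 probes in all). The 2-fold values of these genes numbered 25 with normexp and median scaling, 3 with normexp and loess and 4 at 3-fold, and 1 to 8 without 1 line. The cause of these changes was not tested.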

Other observations

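Among 13583 probes with 1 RefSeq symbol and a vehicle signal above background on 25 or more arrays, the genes most like DUSP6 in the ratio were BDP1 (r = 0.73), RAB5A (0.71) and USP6 (0.71) over 29 arrays, and in the vehicle level ANXA1 (0.97), EMP1 (0.96) and SH3KBP1 (0.95). Those most like SPRY4 in the ratio over 30 arrays were NEDD4L (0.88), ANAPC5 (0.87) and NFRKB (0.87), and in the vehicle level TPM4 (0.98), KLF4 (0.97) and FLNA (0.97). In the vehicle level DUSP2 was most like DCTN2 (0.96), NOXO1 (0.95) and MAPT (0.95). The values share lines and arrays and are a description.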
